A study of Mus musculus with 6 samples.

Results

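Transcription factors that specify and hold the B lineage were compared between Smchd1 null and wildtype pre-B cells. The 10 genes were Pax5, Ebf1, Ikzf1, Ikzf3, Foxo1, Spib, Irf4, Bcl11a, Pou2af1 and Sfpi1, whose current symbol is Spi1. Their probes were taken by gene name from the table of the array, where they stand as PAX5, EBF1, IKZF1, IKZF3, FOXO1, SPIB, IRF4, BCL11A, POU2AF1 and SFPI1 or, for Ikzf1 and Ikzf3, also as ZNFN1A1 and ZNFN1A3. This gave 18 of the 45281 probes on the array, and 10 of 28888 gene names. The Smchd1 null group held 3 samples of E17.5 embryos on a C57BL/6 background that carried the Eµ-Myc transgene and 2 copies of a gene trap allele of Smchd1. The wildtype group held 3 samples of the same age, strain and transgene with intact Smchd1. In this transgene the immunoglobulin heavy chain enhancer forces expression of the oncogene Myc in cells of the B lineage. Both groups are therefore cells with forced Myc expression and not normal fetal B cell precursors. The labels state that cells were sorted fresh from embryos. They give neither the organ nor the gate, and they do not say whether a sample is 1 embryo or a pool, so the spread behind each p-value is that among these samples and may be partly technical.

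B cell precursors arise when a small set of factors is switched on in order. Sfpi1 encodes PU.1, an ETS family factor that acts in both myeloid and lymphoid progenitors, and Ikzf1 encodes Ikaros, a zinc finger protein that opens the lymphoid program. Ebf1 and the forkhead factor Foxo1 then specify the B lineage, and Pax5 commits cells to it by activating B cell genes and repressing genes of other lineages. Bcl11a is a zinc finger factor needed for early B cell development. Ikzf3 (Aiolos, a relative of Ikaros), Irf4, the ETS factor Spib and the coactivator Pou2af1, which binds octamer factors, act from the pre-B stage onwards in pre-B cell receptor signalling, light chain rearrangement and later differentiation. Smchd1 is a chromatin protein of X inactivation and of the silencing of imprinted and clustered genes. By the RefSeq table the members lie on chromosomes 2 (Sfpi1), 3 (Foxo1), 4 (Pax5), 7 (Spib), 9 (Pou2af1), 11 (Bcl11a, Ebf1, Ikzf1 and Ikzf3) and 13 (Irf4).

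RNA was read on Illumina bead arrays. The 6 arrays shared 1 BeadChip, on which null and wildtype samples took turns. Levels are normalized log2 intensities, on which a step of 1 is a doubling of the signal, and an array's lowest detected value lay between 5.08 and 5.19. Smchd1 itself served as the check of the labels and stood at 4.64, 5.03 and 4.96 in the Smchd1 null samples, where it was not detected, against 9.50, 9.65 and 9.67 in wildtype. It was thus at least 22.3-fold lower in Smchd1 null, taking the lowest detected signal as its bound there (limma adjusted p = 5.6e-05). The Smchd1 null sample labelled replicate 3 stood apart, with r of 0.946 to 0.956 to the other arrays over the tested probes, where all other pairs lay at 0.984 to 0.994. The results are therefore given with and without that sample. Of the 16 pre-B lineage markers listed, 11 were tested. Cd79b, a signalling chain of the B cell receptor, and Igll1, part of the surrogate light chain, were detected on all 6 arrays. Dntt, the nucleotide-adding enzyme of V(D)J joining, was detected on none, and Il2ra, a surface marker of later pre-B cells, on 1. Of the 11 tested markers 10 had a higher mean in Smchd1 null and none passed the threshold used here, a limma p of 0.05 adjusted over all tested probes. Their median log2 difference was 0.35 with all samples and 0.07 when Smchd1 null replicate 3 was left out.

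None of the 9 tested B lineage factors differed between Smchd1 null and wildtype cells beyond the spread between samples, and Pax5 was not tested. Of the 18 probes, 12 probes of 9 genes were detected on at least 3 arrays and entered limma's fit over all 15878 such probes. None of these 12 passed an adjusted p of 0.05, the threshold that 0.0567% of all tested probes passed (0.0126% higher and 0.0441% lower in Smchd1 null). At an unadjusted p under 0.05 there were also 0 of 12, against 4.04% of all tested probes, and the smallest unadjusted p was 0.194. The groups overlapped for each of the 12 probes, where 9.61% of all tested probes had groups that did not overlap. By their brightest tested probe, 5 of the 9 genes had a higher mean in Smchd1 null cells and 4 a lower one, with a median log2 difference (Smchd1 null minus wildtype) of 0.05. Over all 10904 tested genes, 5190 were higher and 5714 lower, and their median was -0.01. Without Smchd1 null replicate 3 again 0 of 12 passed, adjusted or unadjusted, while 0.258% of all tested probes passed the adjusted threshold and 7.46% had an unadjusted p under 0.05.

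**Figure D1:**
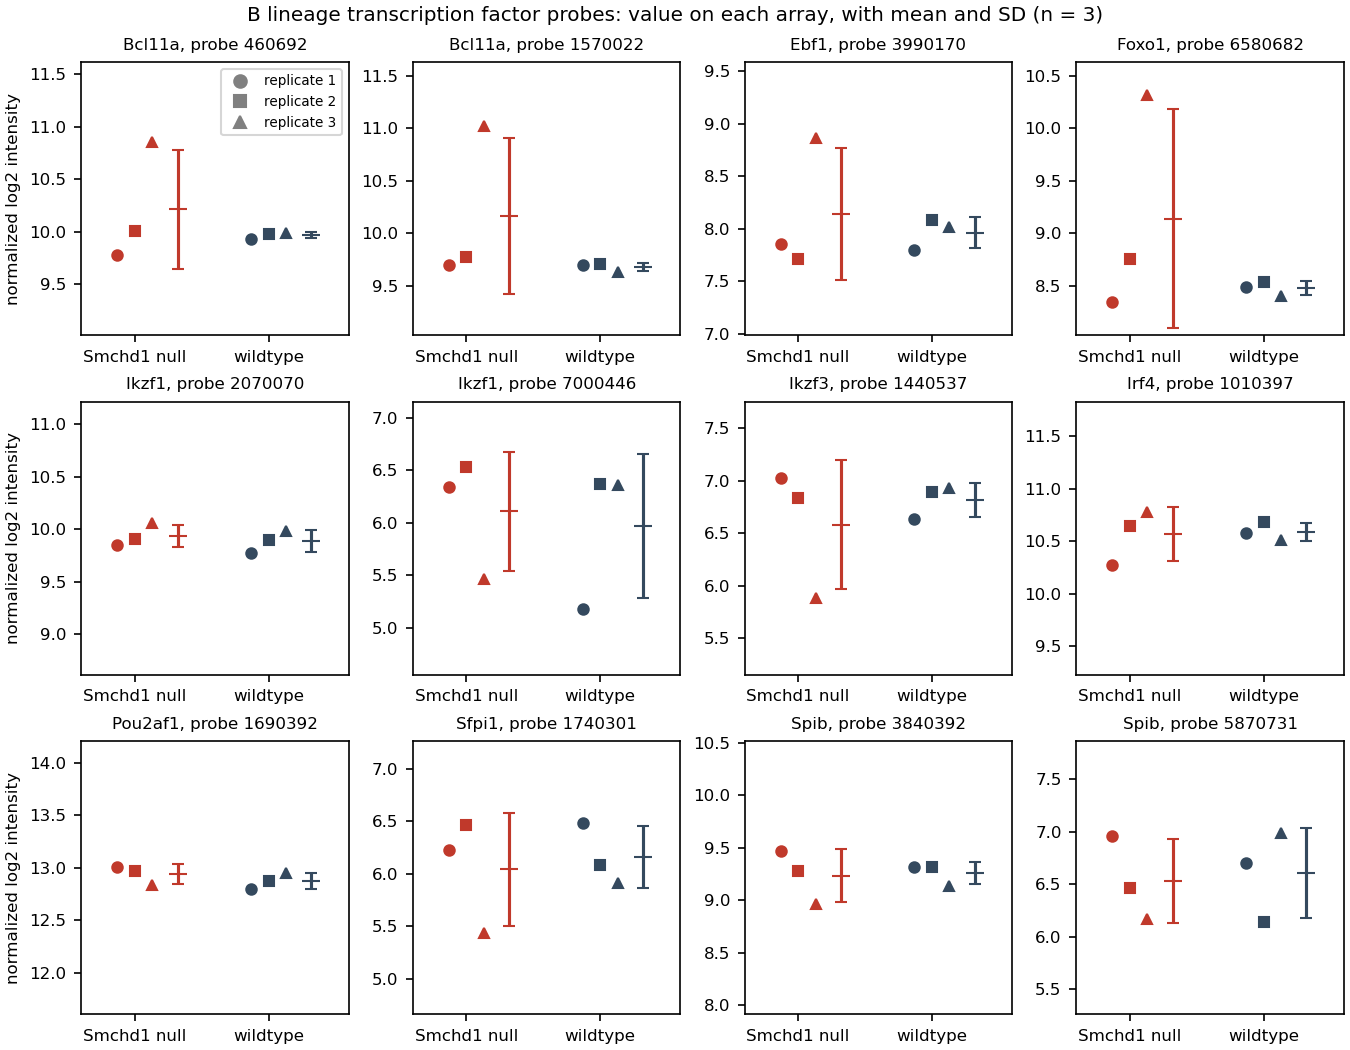
Normalized log2 intensity of the 12 tested probes of B lineage transcription factors on each array, Smchd1 null in red and wildtype in dark blue, 1 symbol per replicate number, with the group mean and SD (n = 3) beside the points. Every panel spans the same number of log2 units. Smchd1 null replicate 3 is the highest array for Foxo1, Ebf1, both Bcl11a probes, the brighter Ikzf1 probe and Irf4, and the lowest for Ikzf3, Sfpi1 and the brighter Spib probe.

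Of the factors that specify and commit the lineage, Foxo1 varied most. Its brighter probe (ProbeID 6580682) had log2 intensities of 8.34, 8.76 and 10.32 in Smchd1 null replicates 1, 2 and 3, against 8.49, 8.54 and 8.40 in wildtype. The first null sample lay below all wildtype samples, and the third lay 1.84 above the wildtype mean, which is a 3.58-fold higher signal. The groups averaged 9.14 ± 1.04 in Smchd1 null and 8.47 ± 0.07 in wildtype (SD, n = 3 each), a log2 difference of 0.66 with a 95% interval of -0.42 to 1.75 (limma adjusted p = 0.934). Without Smchd1 null replicate 3 the difference was 0.08, with an interval of -0.30 to 0.45. A second Foxo1 probe (4290112) was detected on 1 array, Smchd1 null replicate 3, at 5.51. It was not detected in the other null samples, at 4.51 and 4.99, or in wildtype, at 4.58, 4.80 and 4.41, so it was not tested. Both Foxo1 probes thus had their highest value in the same sample.

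Ebf1, which acts with Foxo1 upstream of Pax5, was read by 1 probe. It had log2 intensities of 7.86, 7.71 and 8.86 in the Smchd1 null samples, against 7.80, 8.08 and 8.01 in wildtype. Null replicates 1 and 2 lay within or below the wildtype values and null replicate 3 lay above them all. The mean was 8.14 ± 0.63 in Smchd1 null and 7.96 ± 0.15 in wildtype (SD, n = 3 each), a difference of 0.18 with an interval of -0.53 to 0.89 (limma adjusted p = 0.943). The sign turned without Smchd1 null replicate 3, to -0.18 with an interval of -0.52 to 0.15.

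Bcl11a was read by 2 bright probes that moved alike and by 1 that was detected on no array. The first (460692) stood at 9.78, 10.01 and 10.85 in the Smchd1 null samples, against 9.93, 9.98 and 9.99 in wildtype. The second (1570022) stood at 9.70, 9.77 and 11.02 in Smchd1 null, against 9.69, 9.70 and 9.63 in wildtype. On both probes the wildtype samples and null replicates 1 and 2 were close to each other, within 0.23 on the first and 0.14 on the second, and null replicate 3 lay above them, 1.85-fold and 2.54-fold over the wildtype mean. The log2 differences between the groups were 0.25 (interval -0.40 to 0.89) and 0.49 (interval -0.32 to 1.29), each with a limma adjusted p of 0.934. Without Smchd1 null replicate 3 they were -0.07 (interval -0.38 to 0.23) and 0.06 (interval -0.22 to 0.33).

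Pax5, the commitment factor, could not be measured. Its 1 probe had log2 intensities of 4.57, 4.67 and 5.10 in the Smchd1 null samples, against 4.70, 5.07 and 4.71 in wildtype. It was detected on 1 array, Smchd1 null replicate 3, with a detection p of 0.0438, just under the limit. In wildtype replicate 2, the nearest of the others, the detection p was 0.0524. No statement on Pax5 in either genotype can be drawn from this probe.

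The windows before the starts of Foxo1, Bcl11a and Ebf1 are printed with that of Spib. The first 3 genes had the probes farthest above the wildtype mean in Smchd1 null replicate 3. The brighter Spib probe had its lowest value in that sample, at -0.29 from the wildtype mean. Ikzf3 (-0.94) and Sfpi1 (-0.72) lay farther below it there but had no window at hand. The printed windows were chosen after the values were seen. Each line holds the 250 bases before an annotated start, 5′ to 3′ on the strand of the gene, from RefSeq, and Ebf1 has 2 starts in the table. Capitals mark matches on either strand to CCCNNGGG (the core of the Ebf1 site) or GAGGAA (an ETS core, bound by PU.1 and Spib).
Foxo1, GRCm38.p6 chr3:52268087-52268336, plus strand: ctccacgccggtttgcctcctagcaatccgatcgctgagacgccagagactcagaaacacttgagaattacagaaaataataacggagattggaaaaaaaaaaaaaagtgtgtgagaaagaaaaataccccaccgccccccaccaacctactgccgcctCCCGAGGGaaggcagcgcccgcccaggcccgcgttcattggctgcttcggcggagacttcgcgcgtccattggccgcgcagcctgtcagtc
Bcl11a, GRCm38.p6 chr11:24080445-24080694, plus strand: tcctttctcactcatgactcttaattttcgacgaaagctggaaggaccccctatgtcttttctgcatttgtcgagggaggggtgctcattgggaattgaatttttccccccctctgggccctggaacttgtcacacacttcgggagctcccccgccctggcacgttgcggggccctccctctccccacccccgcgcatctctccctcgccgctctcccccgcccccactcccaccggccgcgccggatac
Ebf1 upstream start, GRCm38.p6 chr11:44617850-44618099, plus strand: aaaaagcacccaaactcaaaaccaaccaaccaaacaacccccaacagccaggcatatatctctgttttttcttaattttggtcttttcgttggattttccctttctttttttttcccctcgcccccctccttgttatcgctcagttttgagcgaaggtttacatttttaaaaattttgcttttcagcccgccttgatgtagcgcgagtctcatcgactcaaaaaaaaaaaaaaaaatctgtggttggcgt
Ebf1 downstream start, GRCm38.p6 chr11:44619978-44620227, plus strand: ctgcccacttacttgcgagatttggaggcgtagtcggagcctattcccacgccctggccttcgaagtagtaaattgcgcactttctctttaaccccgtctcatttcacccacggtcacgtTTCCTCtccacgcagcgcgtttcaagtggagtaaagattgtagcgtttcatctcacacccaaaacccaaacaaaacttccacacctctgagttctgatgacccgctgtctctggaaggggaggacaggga
Spib, GRCm38.p6 chr7:44532072-44532321, minus strand: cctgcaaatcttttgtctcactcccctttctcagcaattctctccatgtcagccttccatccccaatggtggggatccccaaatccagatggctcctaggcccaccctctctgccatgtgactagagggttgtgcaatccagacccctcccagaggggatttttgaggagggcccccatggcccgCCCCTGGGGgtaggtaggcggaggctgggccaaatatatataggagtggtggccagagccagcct

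Windows were at hand for 8 of the 10 genes and not for Ikzf3 and Sfpi1. Both strands were searched for CCCNNGGG and for GAGGAA, and also for CAGGTG (an E-box of E proteins), for CACGTG (the E-box of Myc) and for TGTTTAC (a forkhead site). Foxo1 held 1 match to CCCNNGGG, starting at position -91 from the start of the gene. Spib held 2 overlapping ones at -65 and -64, which form a single stretch, and 1 window of Ikzf1 held 1 at -56. A match to GAGGAA stood at -130 of the downstream Ebf1 start and at -19 of Irf4. No window of Bcl11a, Pax5 or Pou2af1 held any of the 5, and none of the 10 member windows held an E-box of either kind or the forkhead site. Of all 32851 windows of this length, 11.8% held the Ebf1 core, 23.3% the ETS core, 17.2% the E-box of E proteins, 6.0% that of Myc and 3.2% the forkhead site. CpG dinucleotides numbered 20 in the Foxo1 window, 16 in that of Bcl11a, 9 and 14 in those of Ebf1 and 2 in that of Spib, where the median of all windows was 6. The other member windows held 19 (Pax5), 11 (Irf4), 5 (Pou2af1) and 44 and 1 (Ikzf1). These matches are strings in a window, and binding was not measured here.

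Among the zinc finger factors of the Ikaros family, Ikzf1 was steady on its brightest member probe (2070070). This probe stood at 9.85, 9.90 and 10.06 in the Smchd1 null samples, against 9.77, 9.90 and 9.99 in wildtype, and the groups overlapped. The difference was 0.05 with an interval of -0.28 to 0.38 (limma adjusted p = 0.959), so changes beyond 1.30-fold upwards or to under 0.825-fold lie outside the interval. Without Smchd1 null replicate 3 the difference was -0.01, with an interval of -0.31 to 0.29. These intervals hold for quantile normalization. With median scaling in its place, and all samples, the difference was -0.16 with an SE of 0.32, against an SE of 0.14 here. A dimmer Ikzf1 probe (7000446) scattered more, at 6.34, 6.53 and 5.46 in Smchd1 null and 5.18, 6.37 and 6.37 in wildtype, with 1 low sample in each group. Its difference was 0.14 with an interval of -0.80 to 1.08 (adjusted p = 0.962), and 0.46 without Smchd1 null replicate 3, with an interval of -0.40 to 1.33. The Ikzf1 probe under an older name was detected on no array. RefSeq assigns 2 further detected probes, named ZFPN1A1 on the array, to Ikzf1. They are outside the members and had differences of 0.01 (SE 0.14, limma adjusted p = 0.992) and -0.38 (SE 0.24, limma adjusted p = 0.934).

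Ikzf3 was read by 3 probes, of which 1 was detected. That probe (1440537) stood at 7.02, 6.84 and 5.88 in the Smchd1 null samples, against 6.63, 6.89 and 6.93 in wildtype. Null replicate 3 was the low sample, 0.94 under the wildtype mean (0.522 of its signal), and the other null samples lay within or above the wildtype range. The means were 6.58 ± 0.61 in Smchd1 null and 6.82 ± 0.16 in wildtype (SD, n = 3 each), a difference of -0.24 with an interval of -0.94 to 0.46 (limma adjusted p = 0.934). Without Smchd1 null replicate 3 it was 0.11, with an interval of -0.24 to 0.46. Ikaros family genes are also expressed in T and NK cells, of whose 12 markers 5 were tested. With each gene set against its wildtype mean, the median of these 5 was -0.90, 0.66 and -0.91 in the Smchd1 null samples and 0.43, -0.06 and -0.32 in wildtype. Lck, a T cell kinase, and Klrd1, an NK receptor, were the brightest of them, and Cd3d, Cd3e, Cd4, Cd8a, Gata3 and Il2rb were detected on no array. The part of such cells in the Ikzf3 values was not tested.

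Of the ETS factors, Sfpi1 was dim, though detected on all 6 arrays, and Spib was brighter. The Sfpi1 probe stood at 6.23, 6.46 and 5.44 in the Smchd1 null samples, against 6.49, 6.08 and 5.92 in wildtype. Null replicates 1 and 2 lay within the wildtype range and null replicate 3 below it. The difference was -0.12 with an interval of -0.80 to 0.57 (limma adjusted p = 0.955), and 0.19 without Smchd1 null replicate 3, with an interval of -0.28 to 0.65.

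PU.1 is abundant in myeloid cells, and myeloid transcripts differed widely between these samples. Of 21 myeloid markers 15 were tested, of which 2 had a higher and 13 a lower mean in Smchd1 null, and none passed the threshold (1 without Smchd1 null replicate 3, 2 with array weights and 7 with median scaling). Set against the wildtype mean of each gene, their medians were -2.27, -1.89 and 0.31 in the Smchd1 null samples and -0.85, 0.40 and 0.51 in wildtype. S100a8, a neutrophil calcium-binding protein, stood at 9.89, 10.26 and 12.06 in Smchd1 null and 11.35, 12.68 and 12.77 in wildtype. The part of myeloid cells in the Sfpi1 values was not tested. Itgam and Cebpa, which encode the myeloid integrin CD11b and a myeloid transcription factor, were detected on no array.

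Spib was read by 2 probes. The brighter one (3840392) had 9.46, 9.27 and 8.96 in the Smchd1 null samples, against 9.32, 9.32 and 9.14 in wildtype, with the highest and the lowest sample both in the null group. The difference was -0.02 with an interval of -0.43 to 0.38 (limma adjusted p = 0.987), that is 0.744-fold to 1.30-fold, and 0.11 without Smchd1 null replicate 3 (interval -0.21 to 0.43). The dimmer one (5870731) had 6.96, 6.46 and 6.17 in Smchd1 null, against 6.70, 6.14 and 6.99 in wildtype, a difference of -0.08 with an interval of -0.73 to 0.58 (adjusted p = 0.97), and 0.10 without Smchd1 null replicate 3 (interval -0.54 to 0.75). The samples did not fall in the same order on both probes.

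The factors of the pre-B stage and later, Irf4 and Pou2af1, had among the narrowest intervals. Irf4, which promotes light chain rearrangement, stood at 10.28, 10.65 and 10.78 in the Smchd1 null samples, against 10.58, 10.68 and 10.51 in wildtype. Its groups overlapped, and the difference was -0.02 with an interval of -0.42 to 0.38 (limma adjusted p = 0.987). With Smchd1 null replicate 3 left out it was -0.13, with an interval of -0.49 to 0.23. Pou2af1 stood at 13.01, 12.97 and 12.83 in Smchd1 null, against 12.80, 12.88 and 12.95 in wildtype. Its mean was 12.94 ± 0.09 in Smchd1 null and 12.88 ± 0.07 in wildtype (SD, n = 3 each). The difference of 0.06 had an interval of -0.25 to 0.38 (limma adjusted p = 0.952), or 0.839-fold to 1.30-fold. Leaving out Smchd1 null replicate 3 gave 0.12, with an interval of -0.17 to 0.40.

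**Figure D2:**
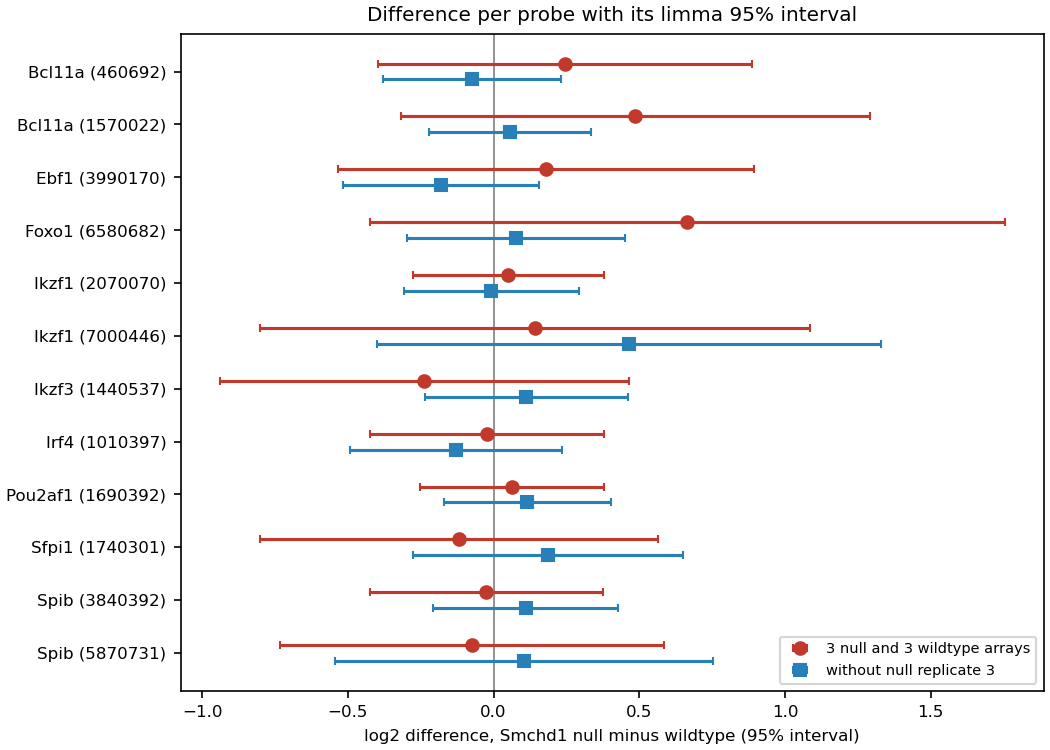
Log2 difference (Smchd1 null minus wildtype) of the 12 tested probes with limma's 95% interval, from all 6 arrays (red circles) and without Smchd1 null replicate 3 (blue squares). All intervals include 0, and all 12 narrow when that sample is left out, those of Foxo1, Ebf1, Bcl11a and Ikzf3 the most.

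Seen over the members, Smchd1 null replicate 3 was the sample that set most of the spread. It was above all 5 other arrays on 6 of the 12 probes, which are those of Foxo1, Ebf1, Bcl11a, Irf4 and the brighter Ikzf1 probe, against 28.3% of all tested probes. It was below all of them on 3 of the 12, those of Ikzf3, Sfpi1 and the brighter Spib probe, against 35.7% of all tested probes. A distance of at least 1 from the wildtype mean was seen on 2 of the 12, Foxo1 and the second Bcl11a probe, against 9.66% of all tested probes. This is 1 sample, so these are descriptions with no test, and many probes across the array departed in it. On each array a tested member probe was read by 27 to 58 beads, and the standard error between beads, which covers reading error within an array only, was 2.14% to 6.13% of the intensity.

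Genes that these factors are known to activate were examined next. None of the 11 tested targets of Pax5 and Ebf1 passed the threshold in either direction, 7 having a higher mean and 4 a lower one in Smchd1 null. The median of their differences was 0.24, and 0.06 when Smchd1 null replicate 3 was left out. Of the 11 targets 3 had groups that did not overlap, not all in the same direction, against 9.61% of all tested probes. Of the genes named here these were Bach2 and Cd72, both lower in Smchd1 null. Bach2, a transcriptional repressor that supports B cell development and holds back plasma cell fate, stood at 10.05, 9.91 and 10.27 in the Smchd1 null samples, against 10.61, 10.66 and 10.80 in wildtype. Its difference of -0.61 (SE 0.15) had a limma adjusted p of 0.883. Cd72, a B cell coreceptor, had a difference of -0.44 (SE 0.17, adjusted p = 0.934). Vpreb3, another of these targets, stood at 12.10, 12.47 and 14.10 in Smchd1 null, against 12.17, 12.16 and 12.03 in wildtype. The surrogate light chain genes Igll1 and Vpreb1 were singled out after their values were seen. They also had their highest value in Smchd1 null replicate 3, as 28.3% of all tested probes did. For both genes null replicates 1 and 2 lay below all wildtype samples. Igll1 stood at 11.96, 11.97 and 14.56 in Smchd1 null and at 12.53, 12.52 and 12.73 in wildtype. Vpreb1 stood at 11.07, 11.34 and 13.95 in Smchd1 null and at 11.71, 11.73 and 11.61 in wildtype. Other targets of the list went the other way in that sample and were likewise picked out after their values were seen. Blk, Cd22 and Cd72 had their lowest value in Smchd1 null replicate 3, as 35.7% of all tested probes did. Blk stood at 9.11, 9.94 and 8.21 in Smchd1 null and at 9.27, 9.48 and 9.32 in wildtype.

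Of the 8 tested genes that Foxo1 activates, 6 had a higher and 2 a lower mean in Smchd1 null, and none passed the threshold. Their median was 0.36 with all samples and 0.04 without Smchd1 null replicate 3. Il7r, the receptor for interleukin 7, had a difference of 0.52 (SE 0.29, limma adjusted p = 0.934) and the recombinase gene Rag1 one of 0.53 (SE 0.33, adjusted p = 0.934). Blnk, an adaptor of pre-B cell receptor signalling, stood at 9.58, 9.61 and 10.47 in Smchd1 null and at 9.68, 9.28 and 9.66 in wildtype. Each of these 3 genes, like Foxo1, had its highest value in Smchd1 null replicate 3, as 28.3% of all tested probes did. Klf2, a quiescence factor also activated by Foxo1 and named after its values were seen, went the other way, at 9.67, 10.12 and 7.98 in Smchd1 null and 9.52, 9.62 and 9.25 in wildtype. Rag2 was detected on 2 arrays and S1pr1 on none, so neither was tested.

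**Figure D3:**
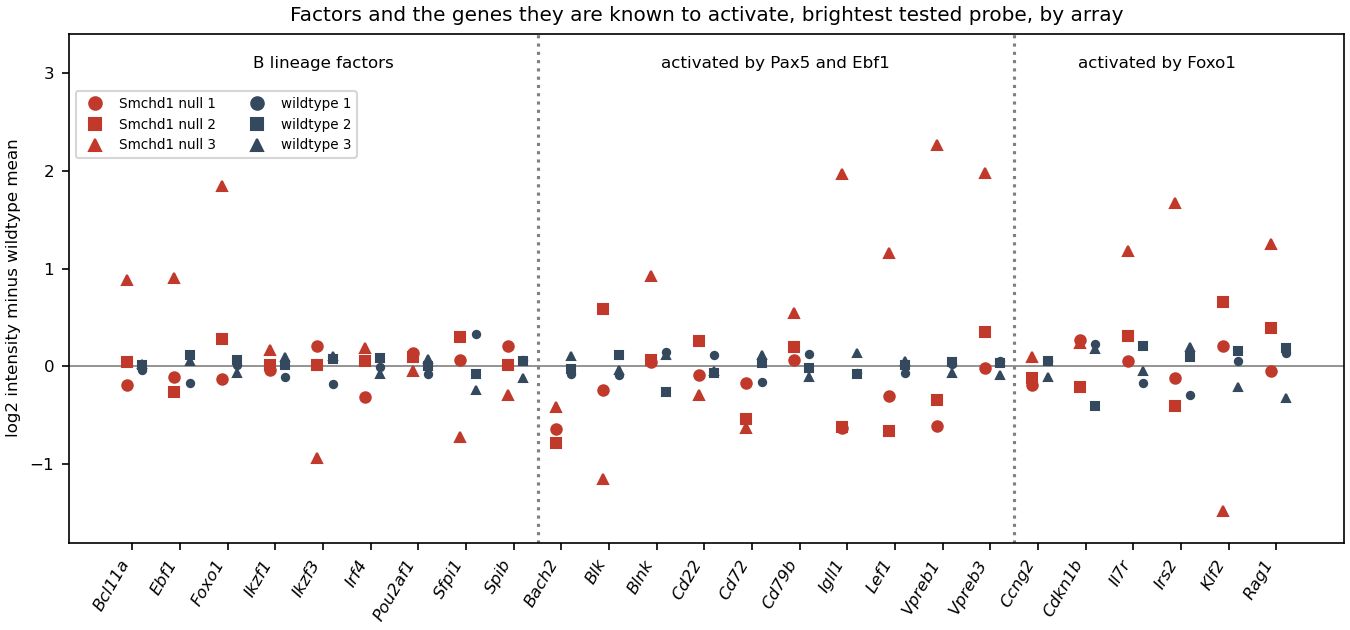
Log2 intensity minus the wildtype mean of each gene, for 9 tested B lineage factors and tested genes they are known to activate, on each Smchd1 null array (red) and wildtype array (dark blue). Smchd1 null replicate 3 (red triangles) lies 1.84 above the wildtype mean for Foxo1. It lies above all other arrays for genes that include Il7r, Rag1, Blnk, Igll1, Vpreb1 and Vpreb3, as for 28.3% of all tested probes. It lies below all other arrays for Blk, Cd22, Cd72, Klf2, Ikzf3, Sfpi1 and Spib, as for 35.7% of all tested probes. Null replicates 1 and 2 lie near the wildtype values for most genes.

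Pax5 represses genes of other lineages, and 4 of the 7 listed genes of this kind were tested, 3 higher and 1 lower, none past the threshold. Their median was 0.07 with all samples and turned to -0.24 when Smchd1 null replicate 3 was left out. Notch1, a receptor that directs T cell fate, stood at 8.11, 8.37 and 9.64 in the Smchd1 null samples, against 8.54, 8.49 and 8.25 in wildtype. Fcer1g, the common signalling chain of Fc receptors, had 6.28, 8.19 and 8.94 in Smchd1 null and 8.62, 8.02 and 7.93 in wildtype. The medians of this list per array were -0.27, -0.02 and 0.72 in Smchd1 null and 0.07, -0.11 and -0.07 in wildtype.

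Further B lineage factors and cofactors gave the same count of calls. Of 28 listed genes 23 were tested, 15 higher and 8 lower in Smchd1 null, and none passed the threshold. Their median was 0.06, and -0.10 without Smchd1 null replicate 3. After Bach2, the smallest p belonged to Myb, a progenitor factor, at 7.29, 6.87 and 8.04 in the Smchd1 null samples and 6.55, 6.89 and 6.45 in wildtype, a difference of 0.77 (SE 0.30, limma adjusted p = 0.934). Pou2f1, the octamer factor Oct-1 with which Pou2af1 acts, had groups that did not overlap, as 9.61% of all tested probes did. It stood at 7.34, 7.04 and 7.25 in Smchd1 null and 7.51, 7.39 and 7.89 in wildtype (difference -0.39, SE 0.18, limma adjusted p = 0.934). Sox4, which supports survival of pro-B cells, had a difference of 0.36 (SE 0.24, adjusted p = 0.934). The median of these 23 per array was -0.10, -0.03 and 0.48 in Smchd1 null and -0.07, 0.01 and 0.07 in wildtype, and that of the 9 members was -0.04, 0.04 and 0.17 in Smchd1 null and -0.03, 0.06 and 0.02 in wildtype.

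Transcripts of other cell types moved with the samples. The 11 tested hepatocyte markers were all lower in Smchd1 null, with medians of -3.52, -3.48 and -1.89 in the null samples and -0.36, 0.25 and 0.11 in wildtype, and 3 of them, Ambp, Afp and Kng1, passed the threshold in limma's fit. That count was 10 without Smchd1 null replicate 3, 1 without wildtype replicate 1 and 0 when any of the remaining 4 arrays was left out. The count was also 0 with the replicate block, 1 without background correction or without the detection filter, and 11 with median scaling or array weights. The 8 tested erythroid markers had medians of -1.22, -0.23 and 0.58 in Smchd1 null and 0.10, 0.01 and -0.08 in wildtype, with the globin genes Hbb-b1 and Hba-a1 the brightest. In bulk RNA, fewer cells of a type and less of a transcript per cell cannot be told apart, and the part of these other cells in the values of the B lineage factors was not tested.

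**Figure D4:**
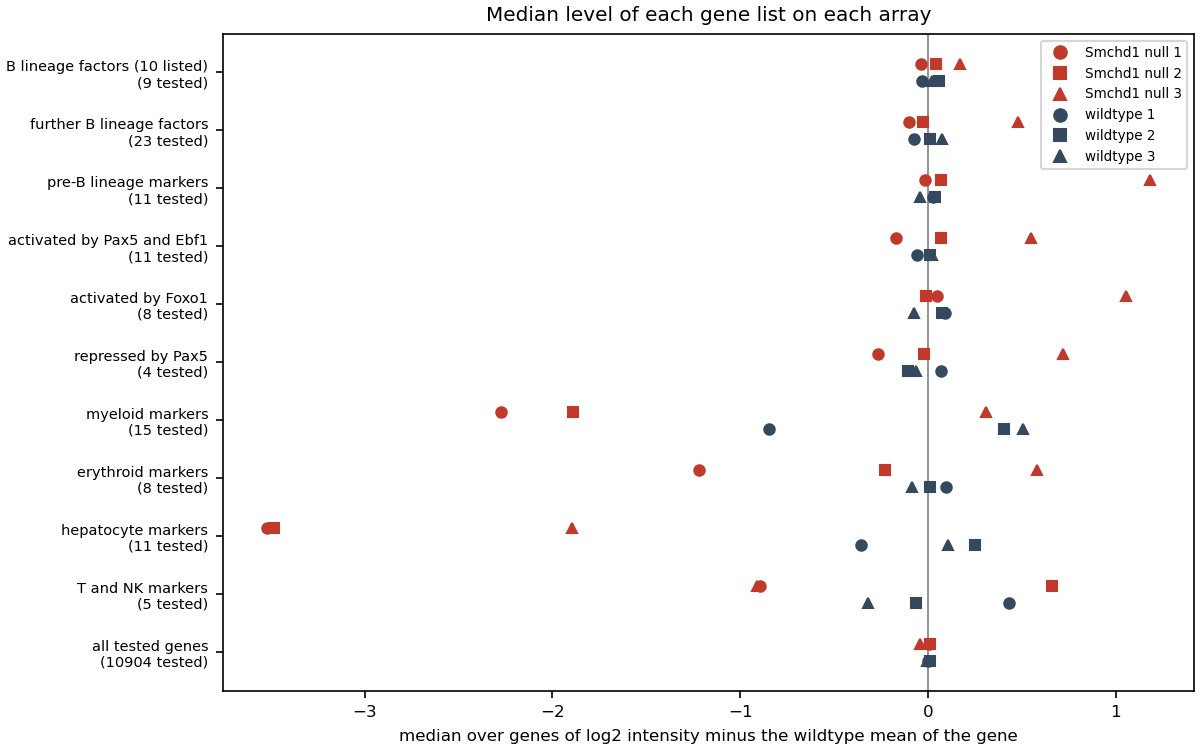
Median over the tested genes of each list of the log2 intensity minus the wildtype mean of the gene, on each Smchd1 null array (red) and wildtype array (dark blue). The median of the 9 tested B lineage factors stays between -0.04 and 0.17 on all arrays. Single factors spread more, and in Smchd1 null replicate 3 Foxo1 lies 1.84 and Ikzf3 -0.94 from the wildtype mean. The medians of hepatocyte and myeloid markers reach -3.52 and -2.27 in Smchd1 null replicate 1.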

How the data were processed

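The deposited intensity values average the beads of each probe (linear scale). Per the file headers, GenomeStudio 1.8.0 wrote them and applied no normalization. The deposited detection columns hold a fraction, 1 minus the detection p-value, and another of the authors' deposited tables holds the p-value itself. The deposited log2 values came from neqc, according to the authors' note of commands, and limma 3.12.1 and R 2.15.1 are named in the submitters' processing notes. The values recomputed here were within 5e-09 of them.

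Intensities of 45281 probes and 974 control probes were normalized with neqc's steps in limma 3.58.1 and R 4.3.3 (normexp from 936 negative controls, quantile normalization, offset 16). Probes detected at p under 0.05 on at least 3 of 6 arrays were tested with lmFit and eBayes, Smchd1 null against wildtype. The test used 3 arrays each and was two-sided, with Benjamini-Hochberg adjustment over all 15878 tested probes. It was tried on simulated data whose spread left out Smchd1 null replicate 3. That trial therefore does not show how the test performs with that sample. Symbols were matched to RefSeq (GRCm38.p6) for 78.9% of probes, and the array tables used here name no build. The brightest tested probe stood for a gene. All member probes are reported, and of related lists the genes with the smallest p, or for markers of other cells the brightest. Some listed genes are not reported here by name and count only in the totals of their lists. The members, lists and tests were chosen with earlier results of these data known. Deviations of same-numbered samples from their group means correlated at r of 0.02, 0.04 and -0.01, and the replicate numbers were not taken as pairs. The outlying Smchd1 null replicate 3 weighs on its group mean, so these r cannot show whether the samples were paired. Alternatives were other background corrections, normalization, offset, filters, moderation, array weights, a replicate block and the omission of each array. The precision is limited by 3 arrays a group.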

Additional observations from a re-analysis of the deposited data

How the results depend on the processing

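None of the 9 tested member genes passed the threshold under any of the 17 alternatives, the lowest limma adjusted p being 0.533 for Foxo1 without Smchd1 null replicate 1. The count of member probes past the threshold stayed at 0 in 16 refits at the level of probes. The count over all probes, 9 in the fit described, was 3 without background correction, 56 with median scaling, 2 when all 6 arrays had to reach a detection p below 0.01, 52 with array weights, 2 with the replicate block, and 2 to 41 when each array was left out in turn (41 without Smchd1 null replicate 3). With the replicate block the members' adjusted p-values were 0.942 to 0.99, and no member's call changed. In all, 19 of 153 member values changed sign. Median scaling moved the median of all genes to -0.18 and that of the members from 0.05 to -0.16, and turned Ebf1 (-0.021), Ikzf1 (-0.16) and Pou2af1 (-0.13). It gave an SE of 0.32 for each of Ikzf1, Irf4, Pou2af1 and Spib. In the fit described these were 0.14, 0.17, 0.13 and 0.17, so the fold bounds given for members hold for that fit only. Array weights, which counted Smchd1 null replicate 3 at 0.165, turned Ebf1 (-0.20), Ikzf1 (-0.010), Sfpi1 (0.27) and Spib (0.055). Leaving out each array gave -0.075 to 0.46 for Bcl11a, -0.18 to 0.40 for Ebf1, 0.08 to 1.06 for Foxo1, -0.0086 to 0.10 for Ikzf1, -0.46 to 0.11 for Ikzf3, -0.13 to 0.12 for Irf4, 0.03 to 0.12 for Pou2af1, -0.33 to 0.19 for Sfpi1 and -0.14 to 0.11 for Spib. The cause of these turns was not tested. Signal near background limits Pax5, which no alternative made measurable, Sfpi1 and the dimmer probes of Ikzf1 and Ikzf3.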

Other observations

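Plasma cell and dendritic cell markers, which share Irf4 and Spib as regulators, were tested for 5 of 8 listed genes, 4 higher and 1 lower in Smchd1 null, and none passed the threshold. Their median per array was 0.01, -0.13 and 0.97 in the Smchd1 null samples and -0.06, -0.06 and -0.05 in wildtype. Prdm1, the master factor of plasma cells, was detected on no array. Of 8 megakaryocyte and mast cell markers 2 were tested, Pf4 and Hdc. Pf4, a platelet chemokine, stood at 4.77, 4.91 and 8.82 in Smchd1 null, against 5.84, 5.62 and 5.35 in wildtype. The transcription factor Lmo2, of progenitors, stood at 7.04, 6.41 and 9.38 in Smchd1 null, against 7.20, 7.34 and 7.51 in wildtype, and was named after its values were seen.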
